A study of Mus musculus with 33 samples.

Results

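Kidney phagocytes that stained brightly for CD11b, carried CD64 and had low F4/80 were sorted into cells with and without a YFP label, and the mRNA of both was sequenced. The comparison rests on 5 YFP+ libraries and 2 YFP- libraries, 7 of the 33 libraries in the series, and membership was taken from the sample labels alone. All mice were Clec9a-Cre/Cre Rosa-YFP/YFP animals on the C57BL/6 background, 10 weeks old, so both alleles of Clec9a carried Cre in the YFP+ and the YFP- cells alike. The sort took cells that were CD45+, Ly6C-, MHCII+, CD64+, F4/80 low and CD11b high. Other kidney populations of the series are used for comparison: F4/80hi cells with YFP (3 libraries) and without it (3 libraries), cDC2 (5 libraries) and cDC1 (6 libraries).

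Conventional dendritic cells descend from bone marrow progenitors that switch on Clec9a, which encodes the receptor DNGR-1, whereas tissue macrophages come from embryonic precursors or from monocytes. In Clec9a-Cre Rosa-YFP mice the Cre removes a stop cassette, so that a cell and all its descendants keep YFP even after Clec9a is silent. YFP therefore records past Clec9a-driven recombination, and its absence does not by itself show another origin, since recombination in progenitors can be incomplete. CD64, the high-affinity IgG receptor encoded by Fcgr1, and F4/80, encoded by the gene listed here as Emr1, are surface proteins used to identify macrophages, while CD11b (Itgam) is shared by macrophages, monocytes and cDC2. Whether CD64+ cells that do and do not carry the label differ in the genes they express is the question that this pair of gates addresses.

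Assigned gene reads ranged between 8729224 and 19731541 in the 5 YFP+ libraries and were 16113616 and 16427546 in YFP- replicates 1 and 2. YFP+ replicate 4 had the fewest gene reads and 45.8% unmapped reads, against 2.35% to 8.08% in the other 6 libraries. The sort codes in the labels join 2 pairs: YFP+ replicate 4 with YFP- replicate 1 (SR18_034Kid1) and YFP+ replicate 5 with YFP- replicate 2 (SR18_036). What a sort code stands for, and whether replicates are separate animals, the labels do not say. The p-values therefore measure a spread between libraries, which may be technical. In the main test that spread was taken from all 33 libraries, so p can be too small where the YFP- libraries vary more. The YFP- libraries stood apart from each other: across 14258 tested genes the Pearson correlation of log2(CPM + 1) was 0.891 between them, against a mean of 0.971 over the 10 pairs of YFP+ libraries and 0.932 over the 10 pairs that join a YFP+ with a YFP- library. Genes are not independent replicates, and these correlations are given as a description. In a limma voom fit with a quality weight per library, YFP- replicates 2 and 1 received the lowest weights of all 33 libraries, 0.168 and 0.189, against 0.522 to 1.30 in the YFP+ libraries.

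Levels are given as CPM (gene reads scaled to a common library size) after scaling by trimmed mean of M values. The sort panel list also holds Itgax, Cd24a and Clec9a, which the labels do not give for the sort of these cells. Levels overlapped between the groups for 11 of the 12 panel genes. The exception was Cd24a, which had 13.3, 9.83, 14.1, 13.3 and 11.6 CPM in YFP+ libraries and 7.83 and 2.13 CPM in YFP- libraries, with a log2 fold of 1.31 ± 0.46 (adjusted p = 0.085). Fcgr1 had 113, 127, 114, 55.8 and 115 CPM in YFP+ replicates 1 to 5, against 66.0 and 120.2 CPM in YFP- replicates 1 and 2. The ranges overlapped, the lowest value of each group coming from sort SR18_034Kid1, and the log2 fold, YFP+ over YFP-, was 0.17 ± 0.52 (SE). Emr1 had 234, 254, 206, 122 and 151 CPM in the YFP+ libraries and 146 and 198 CPM in the YFP- libraries, with a log2 fold of 0.17 ± 0.29. For comparison, Emr1 averaged 2172 CPM in F4/80hi YFP+ cells and 51.0 CPM in cDC2, so both CD11bhi groups lay between these populations.

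Itgam had 551, 629, 489, 607 and 533 CPM in the YFP+ libraries, against 541 and 648 CPM in the YFP- libraries, and the groups overlapped. H2-Ab1, a chain of the MHC class II molecule that presents peptide to CD4 T cells, averaged 29603 ± 3535 CPM in YFP+ cells (SD, n = 5) and 30678 ± 5272 CPM in YFP- cells (SD, n = 2). Of the 12 genes of the sort panel, 0 were called different by the edgeR quasi-likelihood test, where a call needs a Benjamini-Hochberg adjusted p under 0.05 and a log2 fold of at least 1 in size. Across all tested genes the same rule called 762 of 14258, or 5.34%, and 2682 when YFP- replicate 2 was left out.

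Transcripts of Clec9a itself were near 0 in both groups: 0.656, 0, 0.0631, 0 and 0 CPM in YFP+ replicates 1 to 5 and 0 and 0.938 CPM in YFP- replicates 1 and 2. Even kidney cDC1, which in normal mice carry the DNGR-1 protein, averaged only 1.31 ± 0.71 CPM (SD, n = 6) in these Cre/Cre animals, so this transcript does not check the labels. Ly6c2, which marks classical monocytes and was gated out as protein, ranged between 2.45 and 27.9 CPM in the YFP+ libraries, with 2.04 and 8.63 CPM in the YFP- libraries, and its log2 fold of 1.31 ± 0.77 did not pass the test.

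Macrophage and dendritic cell genes were found together, in the YFP+ and in the YFP- libraries. Among macrophage genes, Csf1r, the receptor for the growth factor M-CSF, had 1161, 1664, 1079.5, 999 and 1296 CPM in YFP+ cells and 1303 and 1189.8 CPM in YFP- cells, a log2 fold of -0.01 ± 0.32. Lyz2, which encodes lysozyme, varied about as much within each group, with 3985, 2545, 3750.2, 1883 and 2632 CPM in YFP+ cells and 1507 and 3342 CPM in YFP- cells. Lyz2 was not confined to macrophages: it averaged 1308 CPM in kidney cDC2 and 1541 CPM in kidney cDC1.

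On the dendritic cell side, Cd209a, a C-type lectin of the DC-SIGN family, had 3882, 3157, 4959.6, 4364 and 4319 CPM in the YFP+ libraries and 3688 and 3858 CPM in the YFP- libraries. It averaged 3845 CPM in cDC2 and 3.53 CPM in F4/80hi YFP+ cells. The lectin Mgl2 did not separate these populations in this way. It averaged 944 CPM in cDC2, against 836 CPM in F4/80hi YFP+ and 697 CPM in F4/80hi YFP- cells. Flt3, the receptor for the dendritic cell growth factor FLT3L, had 209, 200.1, 194, 216 and 196 CPM in YFP+ cells, against 234 and 155 CPM in YFP- cells, so the 2 YFP- libraries lay on either side of all YFP+ libraries. Zbtb46, a transcription factor used to define conventional dendritic cells, had 75.3, 67.2, 74.9, 66.1 and 85.9 CPM in YFP+ cells and 127 and 85.6 CPM in YFP- cells, with a log2 fold of -0.52 ± 0.28 that did not pass the test (adjusted p = 0.27).

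Other identity genes were also read without a call. Mgl2 averaged 1346 ± 106 CPM in YFP+ cells (SD, n = 5) and 1315 ± 11.2 CPM in YFP- cells (SD, n = 2). As given above, Mgl2 was also abundant outside cDC2, so its level does not mark cDC2 here. Sirpa, an inhibitory receptor shared by cDC2 and macrophages, averaged 698 ± 76.6 CPM in YFP+ cells and 724 ± 215 CPM in YFP- cells. Irf4, which cDC2 depend on, averaged 67.1 ± 14.4 CPM in YFP+ cells and 65.9 ± 36.4 CPM in YFP- cells. Dpp4 (CD26), a surface peptidase used to separate dendritic cells from monocyte-derived cells, stood a little higher in every YFP+ library, with 255, 277, 280.2, 258 and 276 CPM, against 228 and 206 CPM in YFP- cells, and its log2 fold of 0.31 ± 0.30 missed the threshold (adjusted p = 0.59).

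Counted by list, 0 of these genes passed at 50 CPM or more, but many of the dendritic cell genes had wide intervals. Of the 3302 genes whose mean reached 50 CPM in YFP+ and in YFP- cells alike, 3 were called, or 0.0909%, and no identity gene is among the 3. The macrophage list has 46 members, all tested, 21 of them at 50 CPM or more; 0 of the 21 passed at any fold, and their median log2 fold was 0.11, beside -0.03 over all 3302 genes. The pan-cDC list has 26 members, 15 at 50 CPM or more, of which 0 passed, with a median log2 fold of 0.03. The cDC2 list has 18 members, 10 at 50 CPM or more, of which 0 passed, with a median log2 fold of 0.04. The 95% interval of the fold lay within 2-fold for 6 of the 15 pan-cDC and 4 of the 10 cDC2 genes. It did so for 17 of the 21 macrophage genes and for 89.2% of all 3302 genes. Of 25 lineage transcription factors at that level 0 passed, and 18 had a 95% interval of the fold that lay within 2-fold in either direction. Dendritic cell genes at 50 CPM or more whose libraries did not overlap were Dpp4, higher in YFP+, and Runx3, Pstpip1, Haao and Cnn2, lower in YFP+. Of all genes at that level, 4.18% were higher and 8.09% lower without overlap, 12.3% together. These 5 were chosen after their values were seen. At any level, 4 of 26 pan-cDC genes were higher and 4 lower without overlap, and 3 of 18 cDC2 genes were higher and 0 lower. Over all tested genes the shares were 9.37% higher and 6.34% lower.

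**Figure D1:**
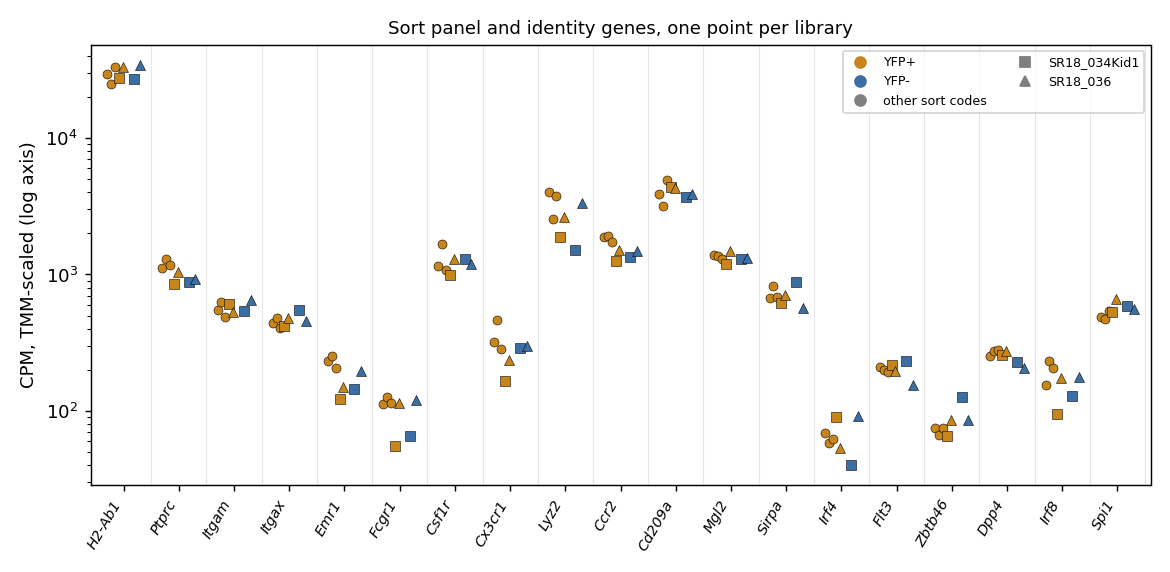
Level of 19 genes in CPM on a log axis, with 1 point per library, YFP+ libraries at the left of each gene and YFP- libraries at the right; squares and triangles mark the libraries of the 2 shared sort codes. For Fcgr1 and Irf8 the YFP+ square is the lowest point, and for Dpp4 all 5 YFP+ points lie above both YFP- points.

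At 50 CPM or more, the genes that passed were few and of modest fold. The 3 called genes were lower in YFP+ cells, and 17 were called without YFP- replicate 1, 117 without YFP- replicate 2, 7 without YFP+ replicate 4 and 6 without YFP+ replicate 5. Ppp6r1, a regulatory subunit of protein phosphatase 6 (chromosome 7, 4631495 to 4658950 in GRCm38), had 86.1, 136, 92.2, 144 and 133 CPM in YFP+ cells, against 347 and 161 CPM in YFP- cells, a log2 fold of -1.10 ± 0.22 (adjusted p = 0.0026). Both YFP- libraries lay above all YFP+ libraries, replicate 2 by little, and without YFP- replicate 1 the log2 fold was -0.44. Abr, a regulator of small GTPases, rested on 1 library: it had 71.0, 91.3, 75.7, 76.2 and 79.2 CPM in YFP+ cells, against 258 and 76.3 CPM in YFP- cells, and without YFP- replicate 1 its log2 fold was 0.05.

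With no minimum on the fold, 67 of the 3302 genes (2.03%) had an adjusted p under 0.05, 20 higher in YFP+ (0.606%) and 47 lower (1.42%). Under upper quartile scaling in place of the main one, 62 genes passed, 33 higher and 29 lower, so the balance of directions depends on the scaling. Folds of the 67 ran between -1.10 and 0.96 on the log2 scale. In 52 of them the libraries of the groups did not overlap, and in 60 both sort-code pairs gave the same direction. The same libraries chose the 67 genes, so these counts are no independent support. Without YFP- replicate 1, 8 of the 67 passed again, and without YFP- replicate 2, 59 did, among 392 genes that then passed; without YFP+ replicate 1, 42 genes passed in all. Apart from Nfkb2, which was picked by its function after its values were seen, the genes named next are among the 12 largest folds in each direction among those with no overlap and 1 direction in both pairs, a rule added after values were seen.

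The first to be described were higher in YFP+ cells. Ssr3, a subunit of the translocon-associated protein complex at the endoplasmic reticulum, had 223, 226, 216, 170.4 and 228 CPM in YFP+ cells, against 133 and 97.3 CPM in YFP- cells, a log2 fold of 0.88 ± 0.26 (adjusted p = 0.038). Klf10, a transcription factor induced by TGF-beta, had 116, 132, 146, 115 and 144 CPM in YFP+ cells, against 56.5 and 85.8 CPM in YFP- cells. Scarb1, a receptor that takes up cholesterol from high-density lipoprotein, had 149, 139, 131, 151 and 150.3 CPM in YFP+ cells, against 76.9 and 103 CPM in YFP- cells. All 5 YFP+ libraries lay above both YFP- libraries in each of these genes. The log2 folds of Ssr3, Klf10 and Scarb1 were 0.88, 0.88 and 0.68 in all libraries. Without YFP- replicate 1 they were 1.13, 0.61 and 0.48, and without YFP- replicate 2 they were 0.64, 1.17 and 0.87.

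Nfkb2, which encodes the precursor of the non-canonical NF-kappaB subunit p52, had a log2 fold of 0.53 ± 0.15 (adjusted p = 0.030), and of 0.36 without YFP- replicate 1. It averaged 128 ± 9.48 CPM in YFP+ cells and 88.1 ± 16.5 CPM in YFP- cells. Tfe3, a transcription factor of lysosome and autophagy genes, had a log2 fold of 0.66 ± 0.20 (adjusted p = 0.040), and of 0.46 without YFP- replicate 1. The remaining named genes of this direction were Plekha1, Mfap3, Ensa, Pygb, Mark3, Abcf1, Wwp2 and Cdc42se2, with log2 folds between 0.58 and 0.88.

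Of the genes lower in YFP+ cells, Tyk2, a Janus kinase of interferon and IL-12 family receptors, had 114, 148, 131, 159.6 and 168 CPM in YFP+ cells, against 308 and 213 CPM in YFP- cells, a log2 fold of -0.86 ± 0.18 (adjusted p = 0.0037). Without YFP- replicate 1 the log2 fold of Tyk2 was -0.56. Mapkapk3, a kinase downstream of p38, had 76.5, 84.6, 82.6, 84.7 and 124 CPM in YFP+ cells, against 154 and 161 CPM in YFP- cells, a log2 fold of -0.80 ± 0.16 (adjusted p = 0.0023). Here the 2 YFP- libraries were close to each other, and the gene passed whichever of the 7 libraries was left out. Stard7, a carrier of phosphatidylcholine to mitochondria, had 73.7, 71.6, 72.3, 53.7 and 95.1 CPM in YFP+ cells, against 169 and 119.9 CPM in YFP- cells.

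Both Rad50 and Lig1, which act in repair and joining of DNA breaks, were lower too, with log2 folds of -0.88 ± 0.23 and -0.78 ± 0.24 (adjusted p = 0.018 and 0.046). Without YFP- replicate 1 their log2 folds were -0.54 and -0.28. Neat1, the long non-coding RNA of paraspeckles, averaged 196 ± 53.4 CPM in YFP+ cells and 352 ± 82.0 CPM in YFP- cells. Gmip, a GTPase-activating protein, had a log2 fold of -0.73 ± 0.14 (adjusted p = 0.0015), and of -0.55 without YFP- replicate 1. Cnppd1, Abca7 and Hs6st1 completed the named genes of this direction, with log2 folds between -0.89 and -0.77.

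**Figure D2:**
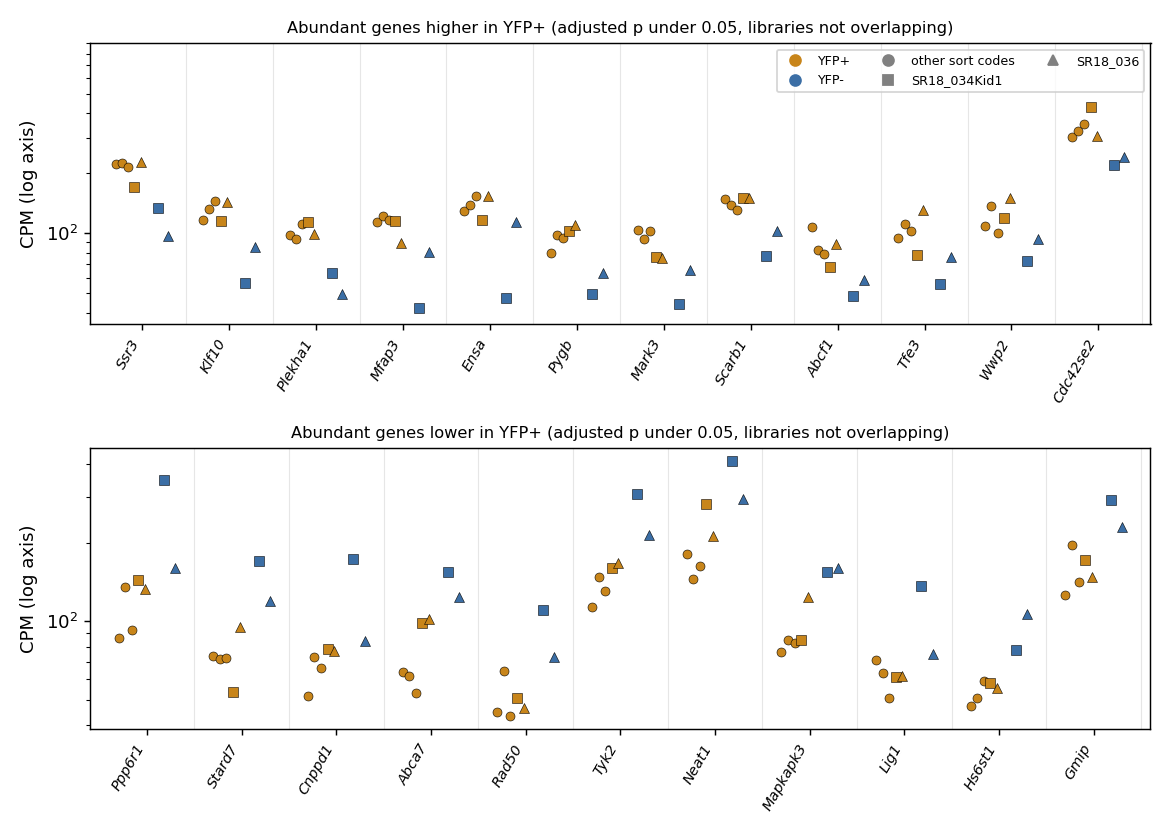
CPM on a log axis of the 12 genes with the largest positive and 11 of the 12 with the largest negative log2 fold among genes at 50 CPM or more that passed at any fold without overlap, with 1 point per library, YFP+ at the left and YFP- at the right of each gene. In Ppp6r1, Cnppd1 and Lig1 the YFP- square (sort SR18_034Kid1) stands far above the YFP- triangle, while the 2 YFP- points of Mapkapk3 are close, at 154 and 161 CPM.

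The fit takes its spread from all 33 libraries, and the calls depended on that choice. Fitted on the 7 libraries alone, edgeR called 0 of 12264 genes; 1700 had an unadjusted p under 0.05 and the smallest adjusted p was 0.18. All 67 genes kept their direction in that fit and had an unadjusted p under 0.05, and 0 of the 67 passed. The contrast that chose the 67 compares these same 7 libraries, so their direction and unadjusted p are no independent support. The voom fit with library weights called 0 genes as well, with 864 at an unadjusted p under 0.05. DESeq2 called 1287 genes.

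A fold could be bounded for most abundant genes. The 95% interval of the fold lay within 2-fold for 2944 of the 3302 genes (89.2%), against 40.5% of all tested genes. These intervals use the shared spread and are too narrow where the YFP- libraries vary more than the others. The gene with the largest fold at this level, Cotl1, an actin-binding protein, did not pass: it had 1528, 935, 1822, 388 and 1504 CPM in YFP+ cells, against 199 and 449 CPM in YFP- cells, and a log2 fold of 1.93 (adjusted p = 0.088). It was chosen after its values were seen. The library of YFP+ replicate 4 lay below YFP- replicate 2, so the groups overlapped.

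The matched sort codes gave a direct view of the 2 YFP- libraries. At 50 CPM or more, 93.4% of genes differed by less than 2-fold between YFP+ replicate 4 and YFP- replicate 1, and 97.8% between YFP+ replicate 5 and YFP- replicate 2. The median absolute log2 difference was 0.33 in sort SR18_034Kid1 and 0.24 in sort SR18_036. Between the 2 YFP- libraries it was 0.40, larger than in either matched pair, and between the 2 YFP+ libraries of these sorts it was 0.21.

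Gene by gene, the pairs did not move together. YFP+ minus YFP- had the same sign in both pairs for 37.5% of genes at 50 CPM or more, and the Pearson correlation of the 2 differences across genes was -0.35; the pairs share no library. Rnf111, a ubiquitin ligase chosen after its values were seen, shows the extreme: it had 102 CPM in YFP+ replicate 4 and 48.4 CPM in YFP+ replicate 5, against 1.46 CPM in YFP- replicate 1 and 98.7 CPM in YFP- replicate 2.

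**Figure D3:**
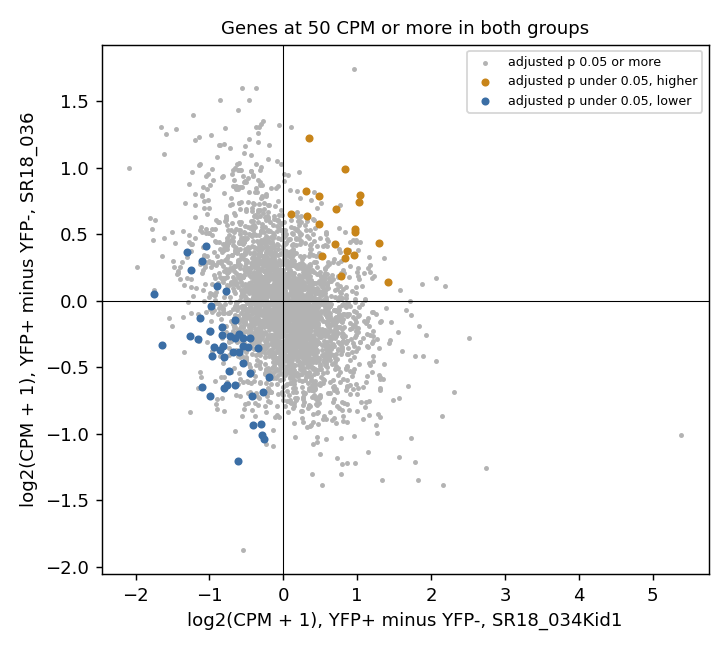
Each point is a gene at 50 CPM or more in both groups, placed by its difference in log2(CPM + 1), YFP+ minus YFP-, in sort SR18_034Kid1 (horizontal) and in sort SR18_036 (vertical); coloured points have an adjusted p under 0.05. Most grey points fall into the quadrants of opposite sign, with the same sign in 37.5% of genes, and the coloured points lie mainly where both pairs have the same sign. The coloured points were chosen by a test that includes these libraries.

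Function lists were read at the same level, where 2.03% of all 3302 genes passed and 89.2% had an interval within 2-fold. A short list with 0 passing is therefore close to the share over all genes. Of the 14 class II presentation genes at 50 CPM or more, 0 passed and 12 had an interval within 2-fold; Cd74, the invariant chain, averaged 87209 ± 6999 CPM in YFP+ cells and 79562 ± 20069 CPM in YFP- cells. All 14 class I presentation genes had an interval within 2-fold, and 0 passed. Of 26 lysosome genes 0 passed and 25 had an interval within 2-fold, with Psap, the precursor of the saposins, at 4777 ± 491 CPM in YFP+ cells and 4417 ± 487 CPM in YFP- cells. All 53 oxidative phosphorylation genes and all 22 ribosomal protein genes at 50 CPM or more had intervals within 2-fold, and 0 of either list passed.

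Among cytokine genes, Il1b had 1527, 1877, 1940.3, 2576 and 1911 CPM in YFP+ cells and 2041 and 1991 CPM in YFP- cells, a log2 fold of -0.04 ± 0.36. Tnf had 48.7, 95.7, 70.0, 112 and 129 CPM in YFP+ cells and 161 and 136 CPM in YFP- cells; its groups did not overlap, and its log2 fold was -0.70 ± 0.45 (adjusted p = 0.37). Of 14 cytokine and chemokine genes at 50 CPM or more, 0 passed and 10 had an interval within 2-fold.

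Among chemokine receptors, Ccr2, by which monocytes leave the marrow, had 1889, 1920.3, 1739, 1261 and 1523 CPM in YFP+ cells and 1333 and 1483 CPM in YFP- cells. Cx3cr1, the fractalkine receptor of tissue phagocytes, averaged 295 ± 112 CPM in YFP+ cells and 295 ± 4.69 CPM in YFP- cells. Of 6 chemokine receptor genes at 50 CPM or more, 0 passed and only 3 had an interval within 2-fold. Of 21 interferon-stimulated genes at 50 CPM or more, 0 passed and 12 had an interval within 2-fold.

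Some genes varied more among the YFP+ libraries than between the groups. Apoe, a lipid carrier that F4/80hi YFP+ cells expressed at 12589.9 CPM on average, had 498, 352 and 213 CPM in YFP+ replicates 1 to 3, 31.9 and 32.4 CPM in YFP+ replicates 4 and 5, and 47.2 and 121 CPM in YFP- replicates 1 and 2. Its log2 fold of 1.42 ± 0.94 did not pass, and in both matched sorts YFP+ lay below YFP-. The complement gene C1qa had 849.5, 851, 547, 288 and 563 CPM in YFP+ cells, against 219 and 603 CPM in YFP- cells. Immediate early genes, which cells induce within minutes of stress or handling, summed to between 26803 and 52717 CPM over 29 genes in YFP+ libraries and to 55096 and 49468 CPM in YFP- libraries, and 0 of the 29 passed. Whether sort or handling sets these levels was not tested.

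Below 50 CPM the picture was different. There 759 genes were called, 619 higher in YFP+ and 140 lower, so that the share of called genes was 4.34% higher and 1.0% lower over all tested genes. Of the 619 higher genes, 471 were under 1 CPM in at least 1 YFP- library, and 337 had no read in at least 1 of them. Both YFP- libraries were under 1 CPM for 361 of the 619, and both had no read for 133. No read was found for 317 of the 619 in YFP- replicate 1 and for 153 in YFP- replicate 2. Among genes with a mean between 1 and 3 CPM, 42.2% had no read in YFP- replicate 1 and 11.05% in YFP- replicate 2, against 3.52% to 9.14% in the YFP+ libraries, and at 50 CPM or more no gene was without reads. The part that missing scarce transcripts plays in the 619 calls was not tested. In these bulk libraries, fewer cells of a type and less RNA per cell cannot be told apart.

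**Figure D4:**
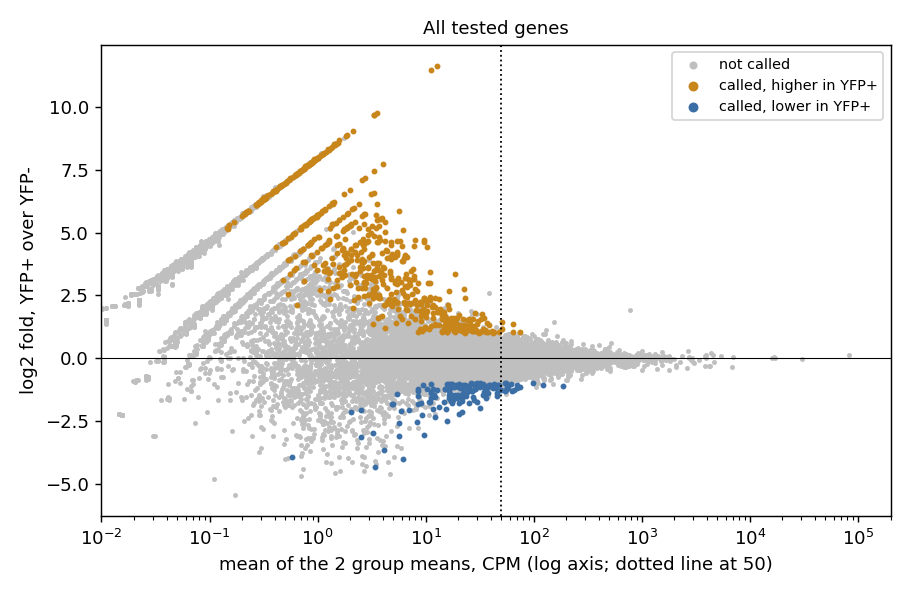
Log2 fold, YFP+ over YFP-, of all 14258 tested genes against the mean of the group means in CPM on a log axis; orange points were called higher and blue points called lower in YFP+. The 619 genes called higher lie at the left of the dotted line or in the narrow range above it where 1 group mean is under 50 CPM, and the rising stripes at the far left are genes with few or no reads in YFP- libraries.

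**Figure D5:**
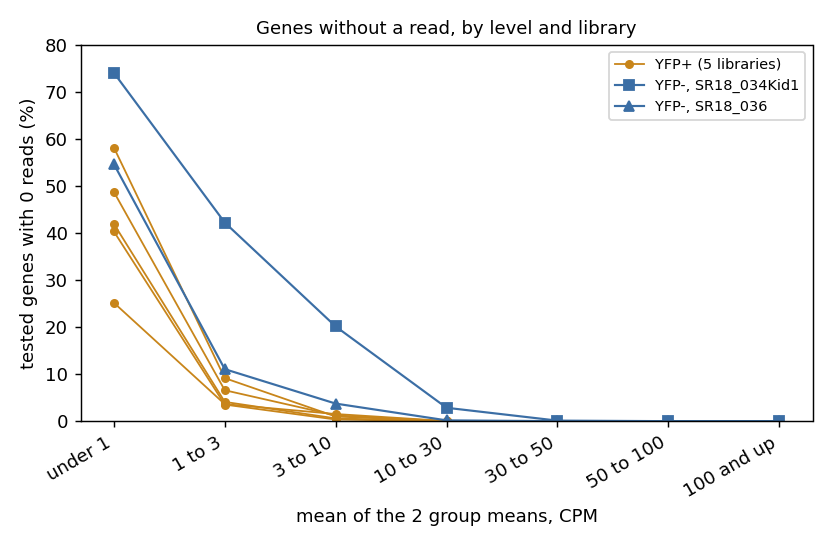
Percentage of tested genes without a read in each library, by the mean level of the gene. YFP- replicate 1 (squares) lies above every other library up to 50 CPM, with 42.2% at 1 to 3 CPM, and all lines reach 0 at 50 CPM.

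Between these extremes lay 2871 genes at 20 CPM or more in both groups with 1 group mean under 50 CPM. Of these 53 were called (1.85%), 19 higher in YFP+ and 34 lower, and 46 had no overlap and 1 direction in both sort pairs. The same libraries gave the calls, so the 46 are a description. Tlr4, the receptor for bacterial lipopolysaccharide, had 84.1, 91.1, 69.0, 56.0 and 68.0 CPM in YFP+ cells, against 32.1 and 22.5 CPM in YFP- cells, a log2 fold of 1.43 ± 0.35 (adjusted p = 0.012). Tlr4 is on the macrophage and the pattern recognition lists. Every YFP+ library lay above both YFP- libraries, and without YFP- replicate 2 the gene did not pass (adjusted p = 0.077).

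Of the 8 sterol and lipid genes at 50 CPM or more, which include Sqle, Hmgcs1, Srebf1 and Srebf2 of the sterol synthesis pathway and its control, 0 passed. An interval within 2-fold was found for 4 of the 8.

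Other called genes in this range were chosen after their values were seen. Kdelr1, which retrieves escaped chaperones to the endoplasmic reticulum, had 67.7, 53.3, 51.6, 39.7 and 57.4 CPM in YFP+ cells, against 12.3 and 28.6 CPM in YFP- cells, a log2 fold of 1.40 ± 0.24 (adjusted p = 0.00042) that was 0.92 without YFP- replicate 1. B4galt4, a galactosyltransferase, had 51.0, 47.7, 57.1, 56.8 and 60.1 CPM in YFP+ cells, against 17.6 and 26.2 CPM in YFP- cells, a log2 fold of 1.32 ± 0.20 (adjusted p = 0.00012). Psmd5, a chaperone in proteasome assembly, had 80.2, 70.1, 81.9, 41.0 and 79.0 CPM in YFP+ cells, against 28.7 and 34.4 CPM in YFP- cells. B4galt4 and Psmd5 were called whichever of the 7 libraries was left out.

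In the lower direction, Bcas3 had 30.4, 28.9, 19.5, 28.9 and 20.1 CPM in YFP+ cells, against 60.1 and 72.4 CPM in YFP- cells, a log2 fold of -1.37 ± 0.21 (adjusted p = 0.00016). Josd1, a deubiquitinase, had 15.2, 22.6, 17.7, 26.4 and 22.6 CPM in YFP+ cells, against 46.7 and 56.4 CPM in YFP- cells. Uhrf1bp1l had 33.1, 31.8, 27.3, 30.9 and 38.4 CPM in YFP+ cells, against 90.2 and 65.3 CPM in YFP- cells. All 3 were called whichever of the 7 libraries was left out.

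By contrast, Prkaa1, the catalytic alpha1 subunit of the energy sensor AMPK, rested on YFP- replicate 1: it had 27.1, 44.8, 45.7, 33.6 and 29.0 CPM in YFP+ cells, against 129.6 and 50.9 CPM in YFP- cells, a log2 fold of -1.33 ± 0.28 that was -0.50 without that library. The same held for Traf2, an adaptor of TNF receptors, with log2 folds of -1.18 in all libraries and -0.48 without YFP- replicate 1. Of a pair of histone H3 lysine 9 methyltransferases, Setdb1 averaged 41.3 ± 6.68 CPM in YFP+ cells and 20.6 ± 0.47 CPM in YFP- cells, while Ehmt2 averaged 45.4 ± 6.79 CPM in YFP+ cells and 95.7 ± 33.5 CPM in YFP- cells. Both were called, in opposite directions, but Setdb1 kept its call in only 2 of the 7 fits that leave out 1 library, with an adjusted p of 0.15 without YFP- replicate 1 and 0.078 without YFP- replicate 2. Ehmt2 was not called without YFP- replicate 1 (log2 fold -0.66, adjusted p = 0.21).

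Of the 46 macrophage genes 8 were called higher, Tlr4 among them, and 0 lower, beside 4.34% called higher over all tested genes. All 8 were under 50 CPM in at least 1 group, where 619 of 10956 genes were called higher. That share varied with level, with 162 of 1050 at a mean of 1 to 3 CPM and 171 of 1715 at 3 to 10 CPM. It was 5 of 1908 at 50 to 100 CPM, where the mean of Tlr4 lies. The dendritic cell lists held such calls too. Of the 26 pan-cDC genes 1 was called higher, Vdr, and 0 lower. Its log2 fold was 3.01 ± 0.92 (adjusted p = 0.043), with a mean of 1.14 CPM in YFP- cells. Of the 18 cDC2 genes 1 was called higher, Clec4a4, and 0 lower. Its log2 fold was 4.51 ± 0.99 (adjusted p = 0.0047), with a mean of 1.57 CPM in YFP+ cells. The part that level plays in the calls of these lists was not tested. Slco2b1, an organic anion transporter, had 17.6, 16.9, 10.9, 8.34 and 7.78 CPM in YFP+ cells, against 0 and 3.19 CPM in YFP- cells, and was not called without YFP- replicate 1 (adjusted p = 0.17). Mertk, the efferocytosis receptor that helps define macrophages, was close to absent in both, with 0 to 1.77 CPM in YFP+ cells and 0 CPM in both YFP- libraries, against 20.9 CPM on average in F4/80hi YFP+ cells. Tfrc, the transferrin receptor, had 7.77, 12.02, 10.97, 15.2 and 6.02 CPM in YFP+ cells, against 0 and 1.13 CPM in YFP- cells, and Cd200, an inhibitory ligand, had 6.04 to 12.7 CPM in YFP+ cells, against 0 and 0.813 CPM in YFP- cells.

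Of the scarcer list members, Itga1 and Abcb6 were called lower in YFP+ cells. Itga1, the integrin subunit of a collagen receptor, had 3.45, 5.91, 3.15, 8.68 and 1.958 CPM in YFP+ cells, against 22.7 and 15.1 CPM in YFP- cells, a log2 fold of -2.04 ± 0.61 (adjusted p = 0.042). Abcb6, a porphyrin transporter, had 4.48, 2.92, 8.70, 3.78 and 10.1 CPM in YFP+ cells, against 30.8 and 18.3 CPM in YFP- cells, a log2 fold of -2.02 ± 0.38 (adjusted p = 0.0011). In both genes the groups did not overlap; Abcb6 was called whichever library was left out, whereas Itga1 was not called without YFP- replicate 1 or without any one of YFP+ replicates 1, 2, 3 and 5, with adjusted p between 0.054 and 0.19.

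Genes without any read in YFP- libraries and with at least 10 CPM on average in YFP+ numbered 2, and 0 genes met the reverse rule. Pla2g7, a phospholipase that inactivates platelet-activating factor, had 38.7, 36.9, 43.6, 0 and 7.58 CPM in YFP+ cells and was at least 280.0-fold higher on average than a floor of 3 reads over both YFP- libraries. Gbp2b, an interferon-induced GTPase from a multigene family whose reads could be split among copies, had 37.1, 20.8, 35.8, 0.779 and 18.3 CPM in YFP+ cells and was at least 249-fold higher. In both genes the YFP+ libraries of the matched sorts were the lowest of the 5: Pla2g7 had no read in either library of sort SR18_034Kid1, and Gbp2b had 0.779 CPM in its YFP+ library.

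Markers of other cells that a kidney sort could hold were scarce in both groups. The calls among them are read beside the 4.34% of all genes called higher and the 162 of 1050 at a mean of 1 to 3 CPM, and nothing is drawn from them. Of 18 T and NK cell genes, 16 were tested and 3 were called higher in YFP+. The summed level of the 18 was 59.1 to 120.7 CPM in YFP+ libraries, against 26.3 and 41.8 CPM in YFP- libraries. Cd8a had 6.12, 4.12, 2.27, 0 and 0 CPM in YFP+ libraries and no read in either YFP- library, so it was at 0 in all 4 libraries of the matched sorts. The 11 B cell genes summed to 47.0 to 64.6 CPM in YFP+ libraries and 53.4 and 35.8 CPM in YFP- libraries, with Ms4a1 at 0 in both YFP- libraries and 1 gene called higher. For 13 endothelial genes the sums were 60.7 to 80.2 CPM in YFP+ and 74.2 and 77.4 CPM in YFP-, with Cdh5 at 0 in both YFP- libraries and 1 called higher. The sums of the B cell and endothelial genes overlapped between the groups, while those of the T and NK cell genes did not, and their part in the comparison was not tested.

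The 16 tubule genes summed to 46.7 to 94.4 CPM in YFP+ libraries and 72.3 and 40.5 CPM in YFP- libraries. Of the 15 tested, 0 were called, and Umod was at 0 in both YFP- libraries. Fibroblast genes (10) summed to 1.86 to 12.6 CPM in YFP+ and 10.7 and 11.6 CPM in YFP-, with 1 of the 8 tested called higher, Acta2. The 10 plasmacytoid dendritic cell genes summed to 136 to 179 CPM in YFP+ and 152 and 144 CPM in YFP-, with 0 called. Neutrophil (12), erythroid (10) and podocyte genes (5) summed to at most 7.56 CPM in any library. Only 5 of each list were expressed enough to be tested, and 0 were called. S100a8 and S100a9 were at 0 in both YFP- libraries, and the haemoglobin genes were at 0 in all 7 libraries. Of 14 cDC1 genes 0 were called, and Xcr1, the chemokine receptor of cDC1, averaged 5.53 ± 1.49 CPM in YFP+ cells and 2.47 ± 2.62 CPM in YFP- cells, against 922 CPM in kidney cDC1.

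Against the other kidney populations, YFP+ and YFP- CD11bhi libraries kept the same order of mean correlation. Over all tested genes YFP+ libraries correlated with cDC2 libraries at a mean of 0.954 and with F4/80hi YFP+ libraries at 0.910, while YFP- libraries correlated with cDC2 at 0.914 and with F4/80hi YFP+ at 0.866. These are descriptions across genes, and the lower values of YFP- libraries go with their lower correlation with each other. At 50 CPM or more the means for cDC2 and F4/80hi YFP+ were 0.865 and 0.738 in YFP+ and 0.829 and 0.689 in YFP- libraries. The ranges over single pairs of libraries overlapped at either level. All CD11bhi libraries carried the library prefix BS and all F4/80hi libraries GS, while cDC2 libraries carried both. CPM was not adjusted for prefix, so prefix and population cannot be told apart in this order.

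Whether the YFP difference in CD11bhi cells differs from that in F4/80hi cells was tested as an interaction, and 262 of 14258 genes (1.84%) were called, 245 with a more positive and 17 with a more negative difference in CD11bhi cells. Of these, 255 were also called in the CD11bhi comparison itself. Without YFP- replicate 1 the number was 434, and without YFP- replicate 2 it was 1978. At 50 CPM or more in both CD11bhi groups 1 gene of 3302 was called (0.0303%): Ahnak, which encodes a giant scaffold protein, with an interaction of -1.75 ± 0.45 (adjusted p = 0.038). Ahnak had 303, 433, 311, 441 and 269 CPM in CD11bhi YFP+ cells and 404 and 412 CPM in CD11bhi YFP- cells, whereas it averaged 23.0 CPM in F4/80hi YFP+ cells and 7.96 CPM in F4/80hi YFP- cells. The 3 F4/80hi YFP+ libraries, at 32.3, 13.1 and 23.5 CPM, lay above the 3 F4/80hi YFP- libraries, at 9.90, 7.31 and 6.67 CPM, and the CD11bhi groups overlapped.

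Without any test of size, 2240 of the tested genes (15.7%) had libraries that did not overlap between the CD11bhi groups, 1336 with YFP+ higher (9.37%) and 904 with YFP+ lower (6.34%). At 50 CPM or more the shares were 4.18% with YFP+ higher and 8.09% with YFP+ lower. Of the 762 called genes, 516 of the higher and 110 of the lower ones did not overlap. The same libraries gave the calls, so these counts are a description.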

How the data were processed

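RNA came from cells sorted into lysis buffer, and cDNA was made from polyadenylated RNA with SMARTseq v4, per the labels' protocols; the library kit does not mark strand, so overlapping antisense genes cannot be separated. The submitters' processing notes name STAR, RSEM and the build mm10, which the authors used; versions are not given in the sources used here. The deposited STAR files hold raw read counts per gene (the unstranded column was used), and the deposited RSEM files hold expected counts and TPM. The authors' joint TPM table was not used. From the counts, edgeR 4.0.16 (R 4.3.3) quasi-likelihood tests were fitted on all 33 libraries with group and the library prefix of the labels as terms, TMM scaling and a filter by expression (minimum count 10, minimum total 15), which kept 14258 genes. The 4 rows of reads outside genes stayed out of library sizes; they were 28.0% to 64.0% of the reads of a CD11bhi library. A gene was called at a Benjamini-Hochberg adjusted p under 0.05 and a log2 fold of at least 1; "passed" means the adjusted p alone. RSEM expected counts were rounded, and TPM was tested with limma 3.58.1 on log2(TPM + 1) and log2(TPM + 0.1). DESeq2 1.42.0 was a further alternative. The main fit alone was tested on simulated counts with known folds. That simulation gave each gene 1 spread for all groups, so it cannot check a YFP- pair that varies more than the others. The comparison, gene lists and rules were chosen with earlier results of these data known. Genes were named as members of the sort panel; called genes at 50 CPM or more without overlap and with the same sign in both sort pairs; up to 4 called members of each list by level, or its 3 highest members where none was called; genes without reads in 1 group; and called interactions at 50 CPM or more. Further genes are said to be chosen after their values were seen, which includes identity and function genes given as examples. Coordinates are from the RefSeq table of GRCm38.p6. Some genes that these rules name are not reported here.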

Additional observations from a re-analysis of the deposited data

Results flagged for a closer look

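Within groups of 4 to 10 libraries, the highest or lowest value was compared with its nearest neighbour relative to the range of the group (Dixon's test at 95%); 214 values were tested in the 5 YFP+ libraries and 16 stood apart, where chance alone gives about 1 in 20. YFP+ replicate 4 had the lowest Fcgr1 (55.8 CPM), Cadm1 (109.9 CPM), Ssr3 (170.4 CPM), Psmd5 (41.0 CPM) and Asb8 (9.01 CPM), and high Alas2 (0.445 CPM), Nphs1 (0.334 CPM) and Wt1 (0.334 CPM). Its unmapped share of 45.8% and its share of reads outside genes of 64.0% were also far from the others. YFP+ replicate 5 had the lowest Mfap3 (89.1 CPM) and the highest Mapkapk3 (124 CPM), H2-D1 (1898 CPM) and Klf1 (0.251 CPM). YFP+ replicate 1 had the highest Clec9a (0.656 CPM) and YFP+ replicate 3 the highest Igtp (131 CPM). The YFP difference of Ahnak differed between CD11bhi and F4/80hi cells by -1.75 on the log2 scale in the test of that difference.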

How the results depend on the processing

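All 762 calls were lost, with 0 left, in the fits of edgeR on the 7 libraries alone (1700 genes at an unadjusted p under 0.05), on the 4 libraries of shared sort codes (191), on these 4 with the sort code as a replicate block (52) or with the codes crossed (190), and in limma voom with library weights (864). At 50 CPM or more the same fits left 0 of the 3 called and 0 of the 67 passed genes, with 301, 47, 26, 47 and 68 genes at an unadjusted p under 0.05; the 7-library fit adjusted over abundant genes alone also left 0, with 401 of 3622 at an unadjusted p under 0.05. Over all genes 133 were called among those of at least 10 CPM and 1287 by DESeq2, and leaving out 1 library gave 646 to 2682. At 50 CPM or more the 3 calls became 5 on log2(TPM + 0.1), 29 without sort SR18_034Kid1 and 2 to 117 without 1 library; at a minimum of 20 CPM they were 56, and at 100 CPM 1. The 67 passed genes became 33 in kidney libraries only, 42 without a filter, 138 by DESeq2, 108 without sort SR18_034Kid1, 243 at 20 CPM, 23 at 100 CPM, and 42 to 392 without 1 library. The 262 interactions became 100 in kidney libraries only, 0 with library weights (750 at an unadjusted p under 0.05), 3 at 10 CPM, 105 on log2(TPM + 1), 527 by DESeq2, 615 without sort SR18_034Kid1, and 209 to 1978 without 1 library. The cause of these changes was not tested.

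With the sort code as a replicate block over all 33 libraries, 559 genes were called, 2 at 50 CPM or more, with 48 passing there and 181 interactions. The deviations of libraries that share a code correlated at -0.15 across abundant genes, so the codes were not taken to pair the libraries. The log2 fold of Abr ran between -1.75 and 0.05 when 1 library was left out. It was 0.048 without YFP- replicate 1, -1.752 without YFP- replicate 2 and 0.053 without sort SR18_034Kid1. The other 66 of the 67 passed genes kept their direction under every alternative, all of which share libraries with the fit that chose them. Of the 762 calls, 300 were shared with the 831 made without YFP- replicate 1 and 601 with the 2682 made without YFP- replicate 2. Leaving out YFP- replicate 2 moved the median log2 fold of all genes by 0.19. Settings without the sort, the crossed codes, the abundant-only adjustment and all alternatives for the 67 genes were chosen after seeing the data. With 2 YFP- libraries, a missed threshold does not show that a gene is alike.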
